A study of Mus musculus with 4 samples.

Results

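The genes described here are the G1 cyclins and the CDK inhibitors of mouse bone marrow mesenchymal stem/progenitor cells (mBMSCs). They were chosen by name, as the rows whose gene symbol was Ccnd1, Ccnd2, Ccnd3, Ccne1, Ccne2, Cdkn1a, Cdkn1b, Cdkn1c, Cdkn2a or Cdkn2b, and all 10 were found among 24346 gene rows. The rule used names alone, but the names were picked with earlier results of these data known. All 10 had a mean of at least 1 FPKM, the sequenced fragments of a gene divided by its length and by the library's mapped total, as did 11959 genes in all, which were the genes tested.

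Passage from G1 into S phase is driven by cyclin-dependent kinases (CDKs). D-type cyclins (Ccnd1, Ccnd2, Ccnd3) activate CDK4 and CDK6, E-type cyclins (Ccne1, Ccne2) activate CDK2, and these kinases phosphorylate the retinoblastoma protein so that E2F factors are released. The CIP/KIP inhibitors (Cdkn1a, Cdkn1b, Cdkn1c) bind cyclin-CDK complexes, whereas the INK4 inhibitors (Cdkn2a, Cdkn2b) bind CDK4 and CDK6 themselves. Much of the control of these proteins is through degradation and complex formation, which RNA levels do not show.

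The study silenced Zbp1, which encodes a sensor of Z-form nucleic acids, to follow how loss of ZBP1 changes the transcriptome of these progenitors. RNA-seq was carried out on 4 samples, 2 transfected with a scramble control siRNA (siScr) and 2 with siZBP1. Both groups were mBMSCs of 3-month-old C57BL/6 mice (C57BL/6J in the study's methods), received siRNA with Lipofectamine RNAiMAX, carried no other alteration named in the labels, and were collected 72 h later. Which siRNA against Zbp1 was used for RNA-seq was not given in the sources used here, and no source says whether the 2 samples of a group came from separate mice or cultures, so p-values measure the spread between these samples, which may be technical.

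Zbp1 itself was at 86.0 and 62.0 FPKM in the siScr samples and at 11.5 and 11.6 FPKM in the siZBP1 samples (log2 fold change -2.56, SE 0.16, limma with Benjamini-Hochberg adjusted p = 0.0032), and the adjusted p was 0.075 and 0.065 without siZBP1 replicate 1 and 2. The spacing of the lowest values pointed to roughly 10000000 to 20000000 fragments per sample. Mesenchymal genes were abundant, the 5 lymphoid genes were at most 0.208 FPKM and the 5 endothelial genes at most 3.08 FPKM (Kdr), but macrophage genes were abundant too. The 14 macrophage markers found summed to 6336 and 7248 FPKM in the siScr samples and 10396 and 9783 FPKM in the siZBP1 samples, and none was at 0. Much of this difference lay in Lyz2 (means 3230.4 and 5636.5 FPKM), whereas Fcgr1 (62.9 and 64.1 FPKM) differed little. Of 13 tested, 7 were higher and 0 lower (0 lower and 9 higher at an unadjusted p under 0.05 by limma), beside 13.5% and 14.8% of all genes tested. The 14 mesenchymal markers summed to 7433 and 6344 FPKM against 4983 and 5019 FPKM, and none was at 0. Most of that difference lay in Col1a1 (means 2793 and 1160 FPKM), whereas Vim (1385 and 1407 FPKM) differed little. Among the 14, 6 were lower and 1 higher (Nt5e, means 4.11 and 21.0 FPKM), beside 14.8% and 13.5% of all genes tested. The part of this shift in the results for cyclins and inhibitors was not tested, and in bulk RNA fewer cells of a type and less RNA per cell cannot be told apart.

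Of the 10 genes, 3 were lower in siZBP1 cells (Ccnd1, Ccnd2 and Cdkn2b), 2 were higher (Cdkn1a and Cdkn2a), and 5 did not pass the test (limma, Benjamini-Hochberg adjusted p under 0.05 over all 11959 genes). Over all genes tested, 14.8% were called lower, 13.5% higher and 28.3% in either direction. By the ratio of group means, 2 of the 10 were over 1.5-fold lower (Ccnd1 and Ccne1), beside 9.19% of all genes tested, and 1 was over 1.5-fold higher (Cdkn1a), beside 4.51%. The groups did not overlap for 8 of the 10, whereas this held for 68.4% of all genes tested. The median log2 fold change was -0.02 over the 10 genes and 0.00 over all genes tested. The counts of called genes depended on which sample was left out, and the counts over all genes tested were smaller in each such fit. An exact permutation test of 2 samples against 2 cannot give a two-sided p under 0.333.

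**Figure D1:**
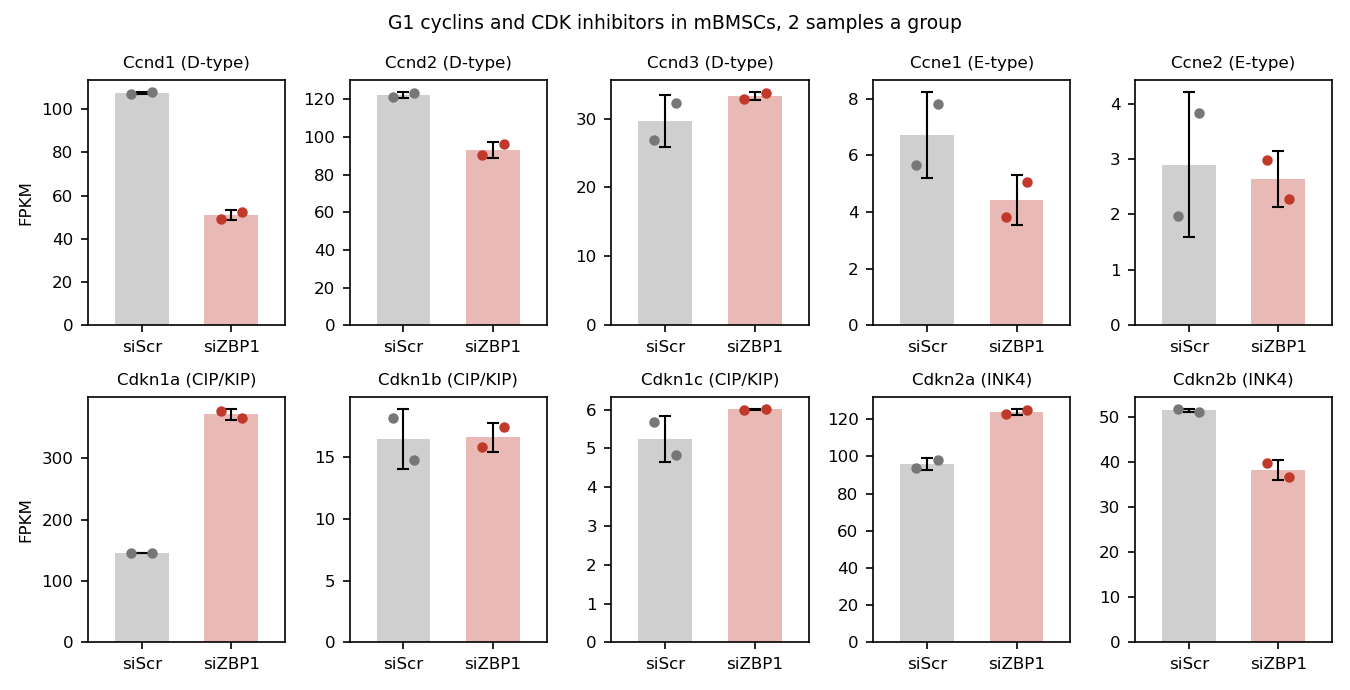
FPKM of the 10 genes (linear axes from 0, scaled per gene), with a point per sample, bars at the group means and error lines of 1 SD (n = 2). The siScr and siZBP1 points are apart for Ccnd1 (107 and 108 against 49.3 and 52.5) and Cdkn1a (145 and 146 against 378 and 365), and they overlap for Ccne2 and Cdkn1b.

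In siScr cells the levels ran from Cdkn1a at 145 FPKM through Ccnd2 (122), Ccnd1 (108), Cdkn2a (95.8), Cdkn2b (51.4), Ccnd3 (29.6), Cdkn1b (16.5), Ccne1 (6.72) and Cdkn1c (5.25) down to Ccne2 at 2.90 FPKM (means, n = 2). Ccne1 and Cdkn1c were the only neighbours in this order whose samples overlapped. In siZBP1 cells Cdkn1a again came first, at 371 FPKM, and was followed by Cdkn2a (124), Ccnd2 (93.2), Ccnd1 (50.9), Cdkn2b (38.3), Ccnd3 (33.3), Cdkn1b (16.6), Cdkn1c (6.00), Ccne1 (4.43) and Ccne2 (2.64). Here no neighbours overlapped. Among all genes tested, mean levels stood between the 14.0 percentile for Ccne2 and the 97.9 percentile for Cdkn1a.

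Ccnd1, the D-type cyclin best known as a target of Wnt and mitogen signaling, was the cyclin with the largest fall. Its level was 107 and 108 FPKM in the siScr samples and 49.3 and 52.5 FPKM in the siZBP1 samples. Both siZBP1 samples were thus below both siScr samples, and the gap far exceeded the spread within either group. The group means were 107.5 ± 0.549 and 50.9 ± 2.23 FPKM (SD, n = 2), a 2.11-fold lower level (log2 fold change -1.07, SE 0.05, limma with Benjamini-Hochberg adjusted p = 0.0022). It ranked 348 of 11959 from the largest fall. The call was lost without siZBP1 replicate 1 (log2 fold change -1.02, adjusted p = 0.054). The gene lies on the minus strand at chr7:144929931-144939925 (GRCm38, GENCODE M21), and 1100 of its 4709 exonic bases overlap LTO1 on the other strand, so reads from the pair could not be told apart if the counting ignored strand, which the sources used here do not state.

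Because the study also reads Ccnd1 by RT-qPCR, its primer pair is shown with the place it measures. Both primers lie in exon 1 of 5 of transcript Ccnd1-201, in coding sequence, at chr7:144939628-144939648 and chr7:144939555-144939577 (GRCm38), and they span a product of 94 bases.
Ccnd1 forward: gcgtaccctgacaccaatctc
Ccnd1 reverse: acttgaagtaagatacggagggc
The RNA-seq value, in contrast, covers all exons of the gene. The conditions differ too: the study's RT-qPCR followed Ccnd1 induction by Wnt3a, a treatment not stated for the RNA-seq samples.

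Ccnd2, a D-type cyclin that responds to growth factors, fell by less. It was at 121 and 124 FPKM in the siScr samples and at 90.2 and 96.2 FPKM in the siZBP1 samples, without overlap. The means were 122 ± 1.57 and 93.2 ± 4.25 FPKM (SD, n = 2), 23.9% lower (log2 fold change -0.39, SE 0.05, limma with Benjamini-Hochberg adjusted p = 0.0092). Its adjusted p was 0.052 without siScr replicate 1 and 0.101 and 0.077 without siZBP1 replicate 1 and 2.

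Ccnd3, the D-type cyclin with the lowest level here, did not pass the test. It was at 26.9 and 32.3 FPKM in the siScr samples and at 32.8 and 33.7 FPKM in the siZBP1 samples. The groups were apart by a narrow gap, with siScr replicate 1 lower than the other samples (log2 fold change 0.17, SE 0.09, 95% interval -0.08 to 0.42, limma with Benjamini-Hochberg adjusted p = 0.251). It passed without siScr replicate 2 (log2 fold change 0.29, adjusted p = 0.047).

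The makeup of the D-type cyclin RNA differed between the groups. Ccnd1 held 41.9% and 40.9% of the summed D-type FPKM in the siScr samples and 28.6% and 28.8% in the siZBP1 samples. Ccnd2 held 47.5% and 46.8% against 52.3% and 52.7%, and Ccnd3 held 10.5% and 12.2% against 18.8% ± 0.395 (SD, n = 2). The ratio of Ccnd1 to Ccnd3 was 3.98 and 3.34 in siScr cells and 1.53 ± 0.0379 (SD, n = 2) in siZBP1 cells. The sum itself was 255 and 264 FPKM against 172 and 182 FPKM. Ccnd2 was thus the most abundant D-type cyclin in all 4 samples.

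**Figure D2:**
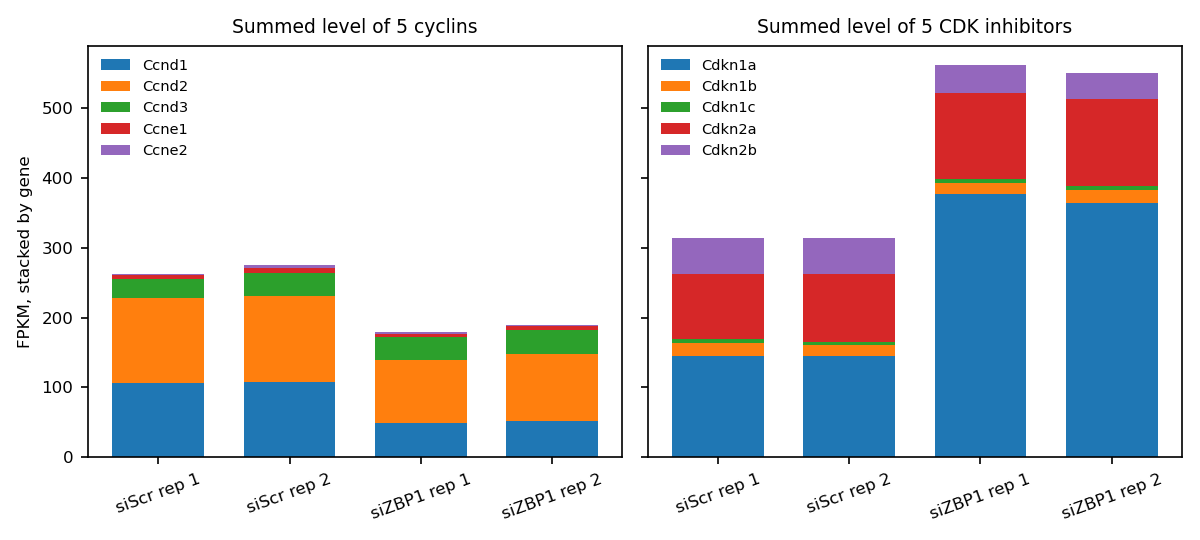
Summed FPKM of the 5 cyclins (left) and 5 inhibitors (right) in each of the 4 samples, stacked by gene (linear axis from 0). The 5 cyclins sum to 263 and 275 FPKM in siScr samples and 179 and 190 FPKM in siZBP1 samples, and the 5 inhibitors to 314 and 315 against 562 and 550 FPKM.

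The E-type cyclins activate CDK2 late in G1 and were low in all samples. Ccne1 was at 5.65 and 7.80 FPKM in the siScr samples and at 3.81 and 5.05 FPKM in the siZBP1 samples. The groups did not overlap, but they came close, and siScr replicate 2 was higher than the rest. The means were 6.72 ± 1.52 and 4.43 ± 0.877 FPKM (SD, n = 2), 1.52-fold lower, with a log2 fold change of -0.50 (SE 0.19, 95% interval -0.997 to -0.009, limma with Benjamini-Hochberg adjusted p = 0.115). With the replicate number as a block the adjusted p was 0.024. Roughly 78 to 310 fragments stood behind each value.

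Ccne2 did not differ beyond the spread between samples. It was at 1.97 and 3.83 FPKM in the siScr samples and at 2.99 and 2.28 FPKM in the siZBP1 samples, which fell between the siScr values (log2 fold change -0.07, SE 0.27, 95% interval -0.77 to 0.64, limma with Benjamini-Hochberg adjusted p = 0.877). Its direction turned with quantile normalization (log2 fold change 0.02). At roughly 86 to 230 fragments per sample, a change of the size seen for Ccne1 was within this interval. In addition, 609 of its 3495 exonic bases overlap Ints8 on the opposite strand, which had a mean of 12.8 FPKM.

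Cdkn1a, which encodes p21 and is the classic CDK inhibitor under p53 control, showed the largest change of the 10 genes. It was at 145 and 146 FPKM in the siScr samples and at 378 and 365 FPKM in the siZBP1 samples. Both siZBP1 samples were far above both siScr samples, and the samples of a group were close together. The means were 145.4 ± 0.505 and 371 ± 8.84 FPKM (SD, n = 2), a 2.55-fold higher level (log2 fold change 1.35, SE 0.04, limma with Benjamini-Hochberg adjusted p = 0.0015). It ranked 68 of 11959 from the largest rise. It passed in 13 of 13 alternative fits, those that left out any 1 sample included, with log2 fold changes from 1.32 to 1.38 and adjusted p up to 0.041.

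Because Cdkn1a moved most, the bases before its annotated start sites are shown (150 bases each, 5′ to 3′, RefSeq, GRCm38.p6). The gene spans chr17:29090976-29100727 on the plus strand (GRCm38, GENCODE M21), and its start sites lie 2790 bases apart. Capitals mark p53 half-sites in the first window, which covers chr17:29090829-29090978 (plus strand), and GC boxes (GGGCGG on either strand) in the second, which covers chr17:29093619-29093768 (plus strand).
Cdkn1a upstream start: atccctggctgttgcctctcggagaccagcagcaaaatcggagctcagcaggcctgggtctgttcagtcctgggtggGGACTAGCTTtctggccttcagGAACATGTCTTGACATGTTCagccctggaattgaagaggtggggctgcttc
Cdkn1a downstream start: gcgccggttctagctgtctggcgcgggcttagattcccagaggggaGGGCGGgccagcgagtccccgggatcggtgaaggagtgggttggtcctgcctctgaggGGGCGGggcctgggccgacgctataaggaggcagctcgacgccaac
The first window holds a pair of adjacent p53 half-sites with 1 mismatch to the consensus, from 51 to 32 bases before the start, and a further half-site, also in capitals, upstream of the pair. Of 32851 RefSeq windows of 250 bases before a start, 20 (0.0609%) hold such a pair with at most 1 mismatch and 7.13% hold a half-site. GC boxes are common, occurring in 32.7% of all windows and in 6 of the 9 windows of these genes, which cover 6 of the 10 genes. The half-site pattern reads the same on both strands, and this motif was searched after the levels of p53 target genes had been seen. The WRE core of Wnt-responsive elements (CTTTGAA, or the same letters with T in place of either or both closing A, on either strand) is in 14.8% of all windows and in 0 of these 9. These matches describe letters in these windows, not bound sites. No entry was matched for Ccnd1, Ccnd2, Ccne2 or Cdkn1c.

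The remaining CIP/KIP inhibitors did not pass the test. Cdkn1b, which encodes p27, the inhibitor that accumulates in quiescent cells, was at 18.2 and 14.7 FPKM in the siScr samples and at 15.8 and 17.4 FPKM in the siZBP1 samples. The siZBP1 values fell between the siScr values (log2 fold change 0.02, SE 0.12, 95% interval -0.29 to 0.32, limma with Benjamini-Hochberg adjusted p = 0.927). Cdkn1c, which encodes p57 and is an imprinted gene, was at 5.67 and 4.82 FPKM against 5.99 and 6.01 FPKM. Its groups were separate by a small margin, without passing the test (log2 fold change 0.17, SE 0.10, 95% interval -0.09 to 0.42, limma with Benjamini-Hochberg adjusted p = 0.262). The overlap of 625 of its 2039 exonic bases with Gm44732 on the opposite strand leaves the same doubt about strand as for Ccnd1. The summed CIP/KIP level went from 169 and 165 FPKM to 399 and 388 FPKM.

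The INK4 genes Cdkn2a and Cdkn2b are neighbours on chromosome 4 and moved in opposite directions. Cdkn2a encodes p16 and, from a separate upstream start and another reading frame, p19ARF, which stabilizes p53 and is no CDK inhibitor. It was at 93.6 and 98.1 FPKM in the siScr samples and at 123 and 125 FPKM in the siZBP1 samples. Both siZBP1 samples were above both siScr samples. The means were 95.8 ± 3.15 and 124 ± 1.496 FPKM (SD, n = 2), 29.4% higher (log2 fold change 0.37, SE 0.04, limma with Benjamini-Hochberg adjusted p = 0.0084). The call was lost without siZBP1 replicate 1 (adjusted p = 0.102) and replicate 2 (0.094). One value is given for the gene, so the p16 and p19ARF transcripts cannot be told apart here.

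Cdkn2b encodes p15, an INK4 inhibitor that responds to TGF-β. It was at 51.7 and 51.2 FPKM in the siScr samples and at 39.9 and 36.8 FPKM in the siZBP1 samples. Both siZBP1 samples were below both siScr samples. The means were 51.4 ± 0.343 and 38.3 ± 2.20 FPKM (SD, n = 2), 25.5% lower (log2 fold change -0.42, SE 0.05, limma with Benjamini-Hochberg adjusted p = 0.010). Its adjusted p was 0.062 without siScr replicate 1 and 0.083 and 0.087 without siZBP1 replicate 1 and 2. The ratio of Cdkn2a to Cdkn2b was 1.81 and 1.92 in the siScr samples and 3.08 and 3.40 in the siZBP1 samples. The summed INK4 level was 145 and 149 FPKM against 163 and 162 FPKM.

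Because the 2 genes lie side by side on the minus strand and differed in direction, the bases before their 3 start sites are shown (150 bases each, 5′ to 3′ on the minus strand, RefSeq, GRCm38.p6). Cdkn2a spans chr4:89274471-89294653 and Cdkn2b chr4:89306299-89311039 (GRCm38, GENCODE M21). The windows cover chr4:89294620-89294769 before the upstream Cdkn2a start, chr4:89282193-89282342 before the downstream Cdkn2a start and chr4:89311033-89311182 before the Cdkn2b start. Capitals mark an E2F motif (TTTCCCGC on either strand) and GC boxes.
Cdkn2a upstream start: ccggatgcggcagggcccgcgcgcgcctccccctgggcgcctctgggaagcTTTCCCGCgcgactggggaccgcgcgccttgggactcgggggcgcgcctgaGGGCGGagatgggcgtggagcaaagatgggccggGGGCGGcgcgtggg
Cdkn2a downstream start: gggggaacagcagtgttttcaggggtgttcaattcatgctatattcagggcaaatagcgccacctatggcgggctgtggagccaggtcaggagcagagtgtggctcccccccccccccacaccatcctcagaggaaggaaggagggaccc
Cdkn2b start: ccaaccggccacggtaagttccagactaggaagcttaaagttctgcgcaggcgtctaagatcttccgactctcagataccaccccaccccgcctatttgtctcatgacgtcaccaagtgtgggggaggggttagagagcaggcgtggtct
The Cdkn2b start lies 16413 bases from the nearer Cdkn2a start, and the Cdkn2a starts lie 12427 bases apart. The window of the upstream Cdkn2a start is 78.7% G or C with 22 CpG, against 60.0% with 2 CpG at the downstream start and 56.0% with 8 CpG at Cdkn2b. It holds the E2F motif, which 0.895% of all 250-base windows hold, and 2 GC boxes, and neither motif is in the other Cdkn2a window or in that of Cdkn2b.

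**Figure D3:**
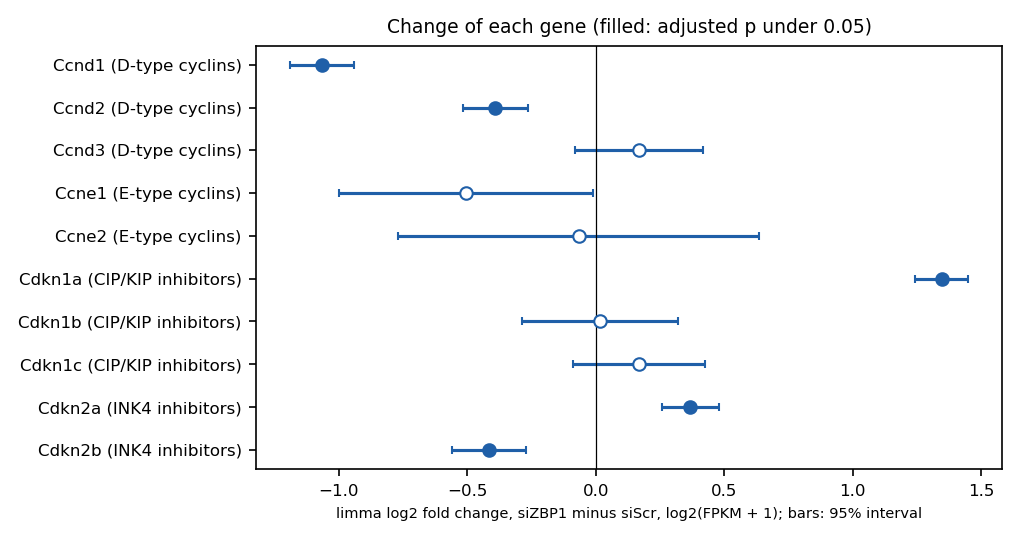
Log2 fold change of FPKM + 1, siZBP1 over siScr, for the 10 genes, with a point for the limma estimate (filled where the adjusted p was under 0.05) and a line for its 95% interval. The intervals of Ccnd1 (-1.19 to -0.94) and Cdkn1a (1.24 to 1.45) lie farthest from 0, and those of Ccnd3, Ccne2, Cdkn1b and Cdkn1c include 0.

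Set against each other, summed cyclin RNA was lower and summed inhibitor RNA higher in both siZBP1 samples, and most of the difference in inhibitors lay in Cdkn1a. The 5 cyclins summed to 263 and 275 FPKM in the siScr samples and to 179 and 190 FPKM in the siZBP1 samples. The 5 inhibitors summed to 314 and 315 FPKM against 562 and 550 FPKM. This sum counts all Cdkn2a RNA, including any p19ARF transcript, which encodes no CDK inhibitor. The ratio of the sums was 0.837 and 0.875 in siScr cells and 0.319 and 0.345 in siZBP1 cells, with means of 0.856 ± 0.0271 and 0.332 ± 0.0184 (SD, n = 2), 2.58-fold lower and without overlap. This ratio weights the abundant genes: Cdkn1a alone made up 46.2% and 46.3% of inhibitor FPKM in siScr cells and 67.2% and 66.3% in siZBP1 cells. With geometric means of FPKM + 1, which weight the genes equally, the ratio was 1.602-fold lower. The ratio of Ccnd1 to Cdkn1a went from 0.739 and 0.740 to 0.131 and 0.144, 5.39-fold lower. It pairs the cyclin with the largest fall and the inhibitor with the largest rise, so it is no separate result. No p is given for these sums, since an exact permutation test of 2 samples against 2 cannot give a two-sided p under 0.333. The genes were also chosen with earlier results of these data known.

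The counts for partners of these genes are read beside the 28.3% of all genes tested that passed in either direction. Among 7 G1 kinases and activators, 1 was lower and 1 higher, a share near that of all genes, and both are partners of D-type cyclins. Cdk4 was at 115 and 113 FPKM in the siScr samples and at 98.9 and 99.4 FPKM in the siZBP1 samples (log2 fold change -0.20, limma with Benjamini-Hochberg adjusted p = 0.021). Cdk6 was at 13.2 and 12.7 against 15.6 and 16.9 FPKM (0.30, adjusted p = 0.031). Of the 3 pocket proteins, which hold E2F factors in check, Rb1 (log2 fold change 0.34, adjusted p = 0.028) and Rbl2 (0.33, adjusted p = 0.017) were higher and 0 were lower. Neither of the other INK4 inhibitors passed (0 of 2, also at an unadjusted p under 0.05 by limma), with Cdkn2c at 12.6 and 18.0 FPKM against 12.1 and 13.1 FPKM and Cdkn2d at 7.99 and 13.6 FPKM against 12.6 and 11.6 FPKM. Cdkn2d passed without siScr replicate 2 (log2 fold change 0.55, limma with Benjamini-Hochberg adjusted p = 0.047). None of 10 E2F and DP factors passed by limma (2 higher and 0 lower at an unadjusted p under 0.05), among them Tfdp1 (log2 fold change 0.01) and E2f4 (0.11). Of 13 genes of cyclin and inhibitor degradation, 1 was lower and 0 were higher by limma (1 and 0 at an unadjusted p under 0.05), namely Ddb1, an adaptor of CUL4 ubiquitin ligases, at -0.22 on the log2 scale (adjusted p = 0.017).

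Almost none of the genes that E2F switches on for DNA replication passed the test. Of 20, only Cdt1, a replication licensing factor, was lower (log2 fold change -0.31, limma with Benjamini-Hochberg adjusted p = 0.0496), 0 were higher (0 also at an unadjusted p under 0.05), and the median was 0.04. Cdt1 did not pass in 4 other fits with all samples (adjusted p from 0.059 to 0.072). The S-phase list and the mitosis list are read beside the 28.3% of all genes tested that passed in either direction. Of 20 mitosis genes, 0 passed by limma in either direction (0 at an unadjusted p under 0.05), with a median of -0.01. These counts changed with the siScr sample kept: without siScr replicate 2, 4 S-phase genes and 1 mitosis gene were higher, and without siScr replicate 1, 1 mitosis gene was lower. Top2a, a topoisomerase of dividing cells, was at 19.6 and 37.7 FPKM in the siScr samples and at 24.9 and 29.1 FPKM in the siZBP1 samples, and Mki67, a marker of cycling cells, at 12.8 and 26.0 FPKM against 21.8 and 24.2 FPKM. Mki67 passed without siScr replicate 2 (log2 fold change 0.80, limma with Benjamini-Hochberg adjusted p = 0.031). With all samples the 95% intervals were wide, at -0.84 to 0.81 for Top2a and -0.55 to 1.18 for Mki67. Not passing therefore does not show that these genes were unchanged. The siScr samples were far apart in the S-phase and mitosis genes. Replicate 2 was above replicate 1 in 20 of 20 S-phase and 20 of 20 mitosis genes, by a median of 1.48-fold and 1.67-fold, whereas the median over all genes tested was 0.986. It was also higher in Ccne1, Ccne2, Cdkn2c and Cdkn2d. Ccnd1, Ccnd2, Cdkn1a, Cdkn2a and Cdkn2b differed little between the siScr samples, as the plot of sample profiles shows. These are the 5 genes past the threshold, and passing it favours a small spread within groups, so this is no separate result. For the remaining genes, replicate 2 over replicate 1 was 1.20 for Ccnd3, 0.81 for Cdkn1b and 0.85 for Cdkn1c. The part of the siScr difference in S-phase and mitosis genes in the Ccne1 value was not tested.

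**Figure D4:**
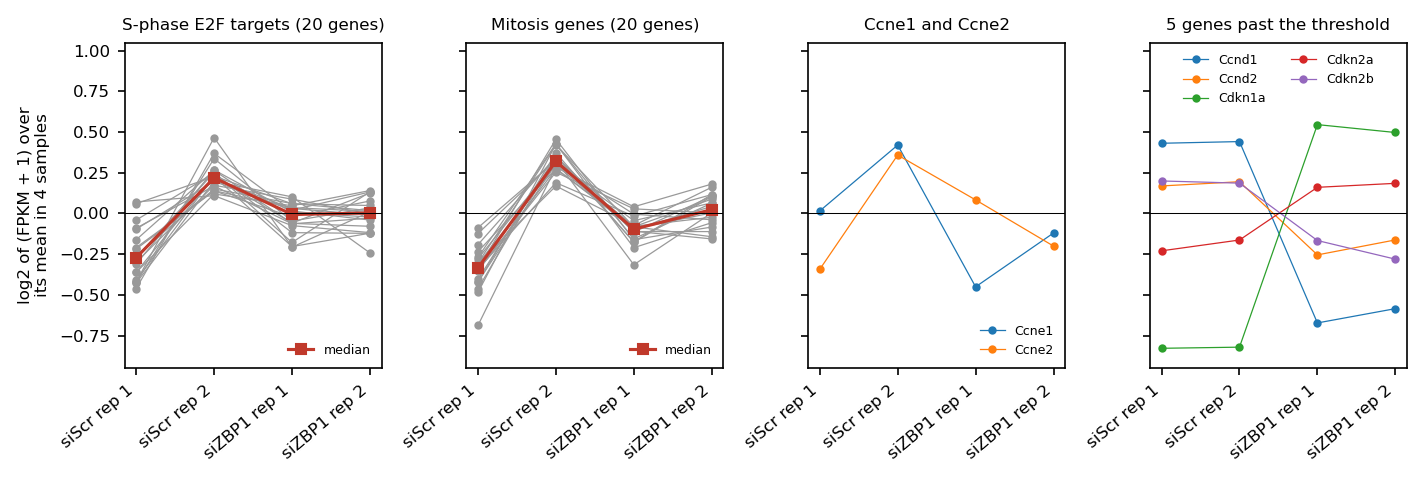
Log2 of FPKM + 1 in each of the 4 samples relative to the gene's mean over them, for S-phase genes, mitosis genes, the E-type cyclins and the 5 genes past the threshold (lines only link a gene's values). The S-phase medians are -0.27 and 0.22 in the siScr samples and -0.01 and 0.00 in the siZBP1 samples, so the siScr samples lie on either side of the siZBP1 samples there. They do not for the 5 genes, but passing the threshold favours a small spread within groups.

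Of 19 tested genes of p53 and its targets, to which Cdkn1a also belongs but which were listed without it, 11 were higher and 0 were lower (1 at an unadjusted p under 0.05 by limma), beside 13.5% and 14.8% of all genes tested, and the median was 0.29. Fas, a death receptor, was at 5.55 and 8.20 FPKM in the siScr samples and at 15.4 and 13.8 FPKM in the siZBP1 samples (log2 fold change 1.00, limma with Benjamini-Hochberg adjusted p = 0.020). Pmaip1, a BH3-only protein, was at 12.4 and 12.9 FPKM against 23.5 and 25.2 FPKM (0.89, adjusted p = 0.0034). Eda2r, a receptor of the TNF family (0.80, adjusted p = 0.0047), and Ccng1, cyclin G1 (0.75, adjusted p = 0.0034), were also higher. All 4 were below the 1.35 of Cdkn1a. Trp53 RNA itself was at 54.4 and 52.2 FPKM against 52.0 and 54.3 FPKM and Mdm2 at 53.5 and 59.1 FPKM against 57.5 and 59.0 FPKM. These 2, chosen after their values were seen, did not pass. With all 4 samples, the count of 11 was 9 without the filter on mean FPKM and 9 without a variance trend. It was 10 with the replicate number as a block and 12 under median centring. It fell when any 1 of the 4 samples was left out, but so did the counts over all genes tested.

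Among 13 tested transcription factors known to act on D-type cyclin genes, 5 were lower and 1 higher, beside 14.8% and 13.5% of all genes tested, with a median of -0.18. The count of 5 was 3 at a mean FPKM of at least 5. It fell when any 1 of the 4 samples was left out, but so did the counts over all genes tested. Myc was at 23.2 and 19.7 FPKM in the siScr samples and at 9.34 and 10.1 FPKM in the siZBP1 samples (log2 fold change -1.06, limma with Benjamini-Hochberg adjusted p = 0.0053), a fall of the size of that of Ccnd1. Tcf7, a DNA-binding partner of β-catenin, was at 5.06 and 4.67 FPKM against 1.11 and 1.83 FPKM (-1.26, adjusted p = 0.011). It lost its call when any 1 of the 4 samples was left out. Egr1, an immediate early factor (-1.04, adjusted p = 0.0050), and Fosl1, a subunit of AP-1 (-0.62, adjusted p = 0.038), were lower as well. Myc, Egr1 and Fosl1 also lost their calls without either siZBP1 replicate, and Fosl1 without siScr replicate 1. Of 10 genes that act on the Ink4 locus (Polycomb genes and Kdm6b, which is not one), 1 was lower and 0 were higher by limma (1 and 0 at an unadjusted p under 0.05). That gene was Bmi1, a repressor of Cdkn2a, at 22.7 and 21.7 FPKM in the siScr samples and at 17.4 and 17.9 FPKM in the siZBP1 samples (-0.31, adjusted p = 0.018).

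Over all these lists, 9 of 117 tested genes were lower and 15 higher, beside 14.8% and 13.5% of all genes tested, with a median of 0.03. The share called higher was thus near that of all genes and the share called lower was below it. Both counts fell without siScr replicate 1 and without either siZBP1 replicate, but so did the counts over all genes tested. Without a variance trend Cdk4 (adjusted p = 0.064) and Ddb1 (0.054) did not pass, and with quantile normalization Fosl1 (0.064) did not. Without siScr replicate 1, Cdk4, Cdk6, Rb1, Rbl2, Ddb1, Cdt1, Tcf7, Fosl1 and Bmi1 did not pass. Without siScr replicate 2, Cdk6, Rbl2, Cdt1 and Tcf7 did not pass. Every named gene of these lists that had passed lost its call without either siZBP1 replicate, Fas, Pmaip1, Eda2r, Ccng1, Myc and Egr1 included.

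**Figure D5:**
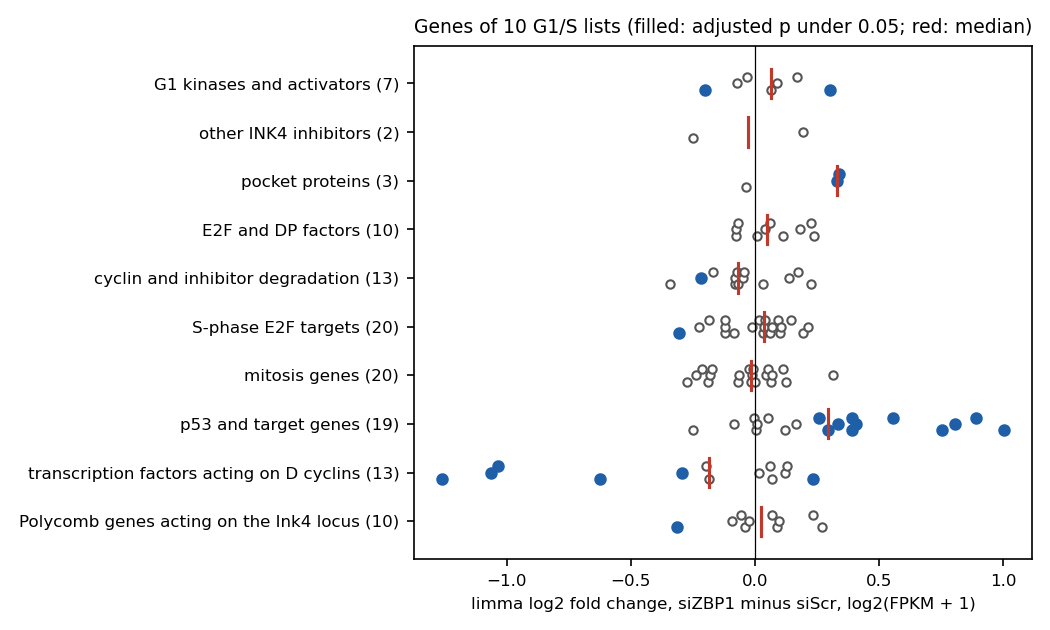
Log2 fold change, siZBP1 over siScr, of each tested gene of the pathway lists, with filled points for genes past the adjusted p and a red line at the median of each list. The p53 list lies mostly to the right (11 of 19 higher), the factors acting on D-type cyclins to the left (5 of 13 lower), and mitosis genes around 0 (median -0.01).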

How the data were processed

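RNA-seq of 2 siScr and 2 siZBP1 samples of mBMSCs was analysed. The authors made TruSeq libraries, mapped reads to mm10 with Tophat and, as their methods state, extracted FPKM values with HTSeq (the submitters' processing notes also name Cufflinks). The deposited FPKM values were used as they stand. Gene annotation, filters, strand setting and read numbers are not given in the sources used here. Fragments were estimated roughly from the spacing of low values in genes with 1 annotated transcript, of over 2000 bases.

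Log2(FPKM + 1) values were fitted by limma 3.58.1 under R 4.3.3, the variance being allowed to depend on the level, and no covariate was used. Genes averaging under 1 FPKM over the 4 samples were left out, and p-values were adjusted by Benjamini-Hochberg over the rest at 0.05. On this scale, changes of low genes are understated. Sums and sequences were handled in Python 3.11.15, and the fit was tested on simulated data. The 10 genes, the lists and the tests were chosen with earlier results of these data known. Besides the 10 genes and Zbp1, at most 4 genes past the threshold with the largest change were named in each list, or, where none passed, the 1 or 2 with the highest mean. The authors' group means were not used.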

Additional observations from a re-analysis of the deposited data

How the results depend on the processing

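The 5 called genes of the 10 kept their call in 45 of 45 values from fits with all 4 samples, in 8 of 10 without a siScr replicate and in 3 of 10 without a siZBP1 replicate, and none changed direction. Leaving out 1 sample in turn gave 0 to 3 of the 10 genes lower and 1 to 3 higher, 0 to 8 pathway genes lower and 0 to 17 higher, and 23 to 1297 of all genes lower and 22 to 1019 higher, against 1766 and 1618 with all samples. Zbp1 had log2 fold changes from -2.79 to -2.33 in those fits. With 1 sample left in a group, that sample is assumed to vary like the other group, which leaves fewer samples to estimate the spread.

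Genes that did not pass with all samples could change direction when 1 sample was left out: log2 fold changes ran from -0.42 to 0.28 for Ccne2, -0.12 to 0.16 for Cdkn1b, -0.16 to 0.55 for Cdkn2d, -0.032 to 0.049 for Tfdp1, -0.47 to 0.44 for Top2a and -0.17 to 0.80 for Mki67. With all samples, Top2a turned to 0.014 under median centring and Ccne2 to 0.018 under quantile normalization. Cdkn2d and Mki67 passed at the upper end of their ranges, without siScr replicate 2 (adjusted p = 0.047 and 0.031). The cause was not tested.

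With the replicate number as a block, 4 of the 10 genes were lower (Ccne1 being added) and 2 higher, and 9 and 14 pathway genes. The deviations of same-numbered samples from their group means had a correlation of -0.063 over genes. With 2 samples a group, both pairs give this same value by construction, so it is 1 value. On it, the numbers were not taken to pair the samples. The block changed no other call among the 10 genes. Using geometric means of FPKM + 1 in place of sums, the cyclin to inhibitor ratio in siZBP1 cells was 0.624 of that in siScr cells, against 0.387. The E-type cyclins had the largest standard errors of the 10 genes (0.19 for Ccne1 and 0.27 for Ccne2).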
